A study of Mus musculus with 168 samples.

Results

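MicroRNA expression in the cortex of Q80 mice at 2 months of age was compared with that of control mice of the same age. The 8 Q80 libraries and the 16 control libraries, 8 from Q20 and 8 from wild type (WT) mice, were chosen by their sample titles from the 168 libraries of the series, which profiled small RNA from the cortex by sequencing. The mice were C57BL/6. A Q80 or Q20 mouse is heterozygous for a knock-in allele of Htt that holds human HTT exon 1 with a CAG length of 80 or 20, and WT mice are littermates of the Q20 line with a CAG length of 7. The whole body carries the knock-in from conception, each genotype is 1 line, and no group here received a treatment. Each group held 4 female and 4 male mice by cage. The title of 1 Q80 library, M1, says male while its housing label names a female cage. That library was kept and counted as female, and the sex of the title was tried as an alternative.

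Huntington's disease follows from expansion of the CAG repeat that encodes polyglutamine in Huntingtin. MicroRNAs are short RNAs, cut from hairpin precursors, that guide Argonaute proteins to messenger RNAs by pairing of their seed (bases 2 to 8) and thereby lower translation or stability of the target. Related microRNAs share a seed and are grouped into families. In the brain the let-7 family accumulates as neurons mature, Mir132 and Mir212 are induced by neuronal activity, and Mir9 and Mir128 are abundant in neurons.

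The mature sequences of the 5 microRNAs with the smallest p in this comparison, of other let-7 members, and of Mir132 and Mir221 with their partners of the same seed, are given from RefSeq (GRCm38.p6), written 5′ to 3′ with the seed in capitals. The deposited counts are per precursor transcript, so the 2 arms of a hairpin cannot be told apart, and for most precursors only the arm known to be the abundant one is shown. The first group is the let-7 family, which includes Mir98.
mmu-let-7i-5p: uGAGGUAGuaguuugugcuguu
mmu-let-7a-5p: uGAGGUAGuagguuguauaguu
mmu-let-7c-5p: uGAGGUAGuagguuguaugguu
mmu-miR-98-5p: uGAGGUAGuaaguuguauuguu
mmu-let-7d-5p: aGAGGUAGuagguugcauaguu
mmu-let-7g-5p: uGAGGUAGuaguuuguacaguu
mmu-let-7f-5p: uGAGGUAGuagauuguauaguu

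These 7 sequences share the seed GAGGUAG and are all of 22 bases. Outside the seed let-7i differs from let-7a at 4 bases, let-7d, let-7g and miR-98 each at 2, and let-7c and let-7f each at 1. With so few differences, reads of 1 member can be assigned to another, and Mirlet7c-1 and Mirlet7c-2, which carry the same mature RNA, can share reads. This also holds for Mirlet7a-1 and Mirlet7a-2, by name both precursors of let-7a, and for Mirlet7f-2 with Mirlet7f-1, which was not measured here. Values of single let-7 members are therefore uncertain in how the family total was split. The next 2 pairs are cluster partners with a common seed, and the last precursor is shown with both arms because neither is known to be the main one here.
mmu-miR-132-3p: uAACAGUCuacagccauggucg
mmu-miR-212-3p: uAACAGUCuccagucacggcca
mmu-miR-221-3p: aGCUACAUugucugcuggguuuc
mmu-miR-222-3p: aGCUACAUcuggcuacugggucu
mmu-miR-3059-5p: uUUCCUCUcugccccauagggu
mmu-miR-3059-3p: cCUCUAGGgaagagaagguugg

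Total counts were between 3588307 and 5773668 per library, and the tested microRNAs were 327 of the study's microRNAs with a transcript in the table and at least 1 count. Libraries differed most in 8 microRNAs of epithelium and of olfactory and sensory cells, the Mir200 family (Mir200a, Mir200b, Mir200c, Mir141 and Mir429) and the Mir183 cluster (Mir183, Mir182 and Mir96). Their summed level, in CPM (counts scaled to 1000000 per library after TMM normalization), was between 274 and 742 in 6 of the 8 Q80 libraries, 5889 in Q80 F1 and 30463 in Q80 M5. In the Q20 libraries the sum ran from 1366 to 33249 (median 19173), and in the WT libraries from 278 to 27873 (median 3530). Below 1000 CPM lay 6 of 8 Q80, 0 of 8 Q20 and 4 of 8 WT libraries. Mir9-2 and Mir128-1, of the neuron-enriched list, were abundant in every library, at 33029 to 43610 CPM and 26445 to 48995 CPM. The 24 libraries also fall into 2 sets by the library numbers of their labels, with 6 Q80 and 11 control libraries in the first and 2 Q80 (F3 and M5) and 5 control libraries in the second.

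**Figure D1:**
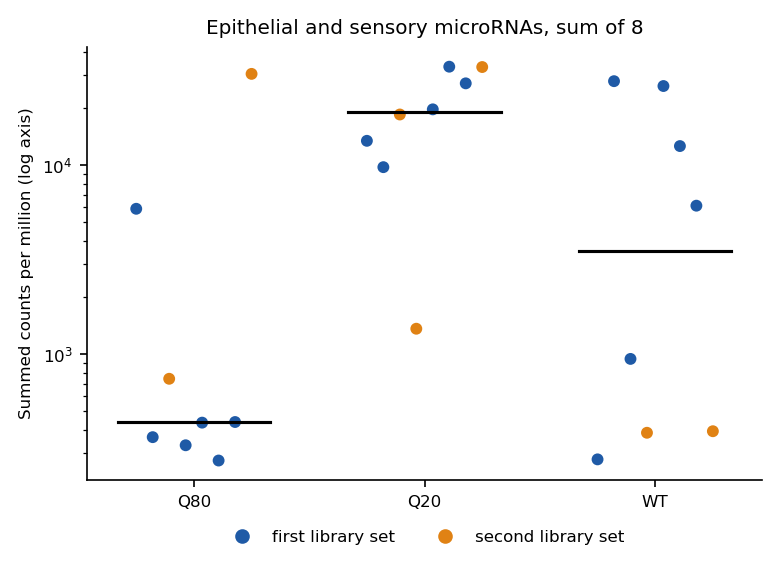
Summed level of the 8 epithelial and sensory microRNAs in each 2-month cortex library, in CPM on a log axis, with 1 point per library coloured by library set and a line at the group median. In Q80 6 of 8 libraries sit below 1000 CPM, and M5 at 30463 stands far above the other 7.

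No microRNA passed FDR 0.05 in the 2-month cortex of Q80 mice with edgeR's quasi-likelihood test (0 of 327, 0.0%), and differences were small. The microRNA with the smallest p was Mirlet7i, 10.6% higher in Q80, followed by Mir3059, 11.4% lower. Counted at an unadjusted p under 0.05 there were 27 of 327 (8.26%), of which 16 were higher (4.89%) and 11 lower (3.36%) in Q80. DESeq2's Wald test called 2 of 327 at FDR 0.05 (0.612%), Mirlet7i and Mir3059, and had 32 at an unadjusted p under 0.05 (9.79%). The median log2 difference over all microRNAs tested was -0.0031. In no microRNA were the Q80 libraries wholly apart from the control libraries (0 of 327, 0.0%).

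The comparison could resolve modest differences in the better counted microRNAs. Of the 327, 264 had a mean of at least 10 counts per library, and the median half-width of their 95% confidence interval was 0.14 on the log2 scale. The interval lay within 0.5 of 0 for 237 of the 264 and within 1 of 0 for 253. The median coefficient of variation between mice was 11.1% in Q80 and 11.3% in the controls. Only 10 of the 264 had a fitted difference above 0.5 in size, and these were the 8 epithelial and sensory microRNAs, Mir375 and Mir19b-1, 9 of which had a coefficient of variation over 100% in Q80 libraries while the other, Mir375, had 21.6% there and 116% in the controls. For the remaining 63 microRNAs with fewer counts, only much larger differences were detectable at this depth.

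**Figure D2:**
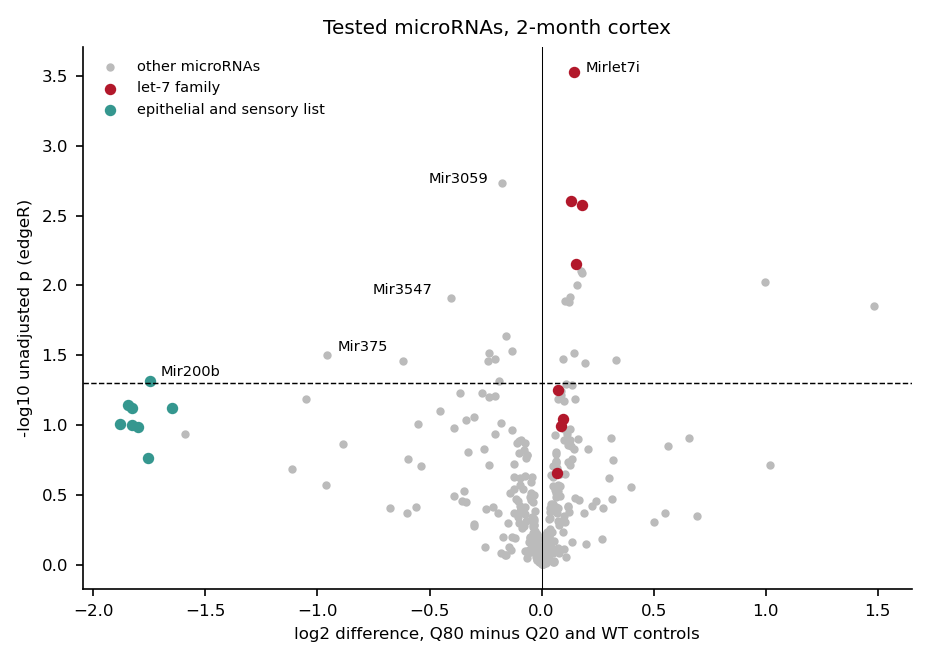
Difference between Q80 and control libraries for the 327 microRNAs tested, as log2 difference against -log10 of the unadjusted edgeR p, with a dashed line at the unadjusted threshold. The 8 let-7 members lie to the right of 0, the 8 epithelial and sensory members lie between -1.88 and -1.65, and no point passed FDR 0.05.

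Among the let-7 family, which was measured through 8 tested precursors, all 8 had a higher fitted level in Q80. Their log2 differences ran from 0.07 to 0.18 with a median of 0.11, beside a median of -0.0031 over all 327. By unadjusted p under 0.05, 4 of the 8 were higher and 0 lower, against 4.89% and 3.36% over all microRNAs tested, and 0 passed FDR 0.05 with edgeR. All 8 kept a positive difference under each of the 29 alternative settings. Since members can share reads, these are not 8 separate observations. Summed over the 10 let-7 transcripts of the table, the family took 68111 to 78259 CPM in Q80 (median 73933) and 60536 to 77358 CPM in controls (median 67991).

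Mirlet7i lies on chromosome 10 (chr10:122985640-122985724, minus strand, GRCm38), in an exon of the transcribed pseudogene D630033A02Rik. Its level was 7761, 7039, 7127, 6758, 6794, 7458, 7297 and 7159 CPM in Q80 F1, F2, F3, M1, M2, M3, M4 and M5. In the controls it ranged from 5934 to 7074 CPM with a median of 6458. All 8 Q80 libraries lay above the control median and 5 lay above the highest control, WT F4, so the groups overlapped in the lower 3 Q80 libraries. The log2 difference was 0.15 (SE 0.03, 95% interval 0.07 to 0.22), with an adjusted p of 0.0966 by edgeR over 327 microRNAs. DESeq2 gave an adjusted p of 0.0045. An exact permutation test of the group labels, two-sided on log2(CPM + 1) and without sex, gave p = 6.53e-05, which is 0.0213 after Benjamini-Hochberg adjustment over the same 327 tests. Within the first library set its mean was 7184 ± 394 CPM (SD, n = 6) in Q80 and 6422 ± 308 (n = 11) in controls, and within the second 7143 ± 22 (n = 2) and 6624 ± 287 (n = 5). The sexes gave like values, with 7171 ± 424 CPM in Q80 females and 7177 ± 283 in Q80 males (n = 4 each), and 6427 ± 365 and 6544 ± 248 in control females and males (n = 8 each).

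Mirlet7a-1, on chromosome 13 in an exon of the lincRNA 6720427I07Rik, had a Q80 median of 11976 CPM (10739 to 12689) and a control median of 10950 (9518 to 12261). Of the Q80 libraries 7 lay above the control median and 3 above every control. Its log2 difference was 0.13 (SE 0.04, edgeR adjusted p = 0.217). Mirlet7c-1, within an intron of Mir99ahg on chromosome 16, had a Q80 median of 5173 CPM (4399 to 5999) and a control median of 4553 (3968 to 5039), with 5 Q80 libraries above every control. Its log2 difference was 0.18 (SE 0.05, edgeR adjusted p = 0.217). The groups of both members thus overlapped at their edges.

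Mir98, in an intron of the ubiquitin ligase gene Huwe1 on the X chromosome, had a Q80 median of 976 CPM (885 to 1052) and a control median of 855 (735 to 1095). All 8 Q80 libraries lay above the control median, and 0 lay above the highest control, WT F4. Its log2 difference was 0.15 (SE 0.05, edgeR adjusted p = 0.326). Mirlet7f-2, its neighbour on the X chromosome and the most abundant family member, had a difference of 0.07 (SE 0.06, edgeR adjusted p = 0.694), with the groups overlapping over most of their range. Mirlet7d, Mirlet7g and Mirlet7a-2 had differences of 0.08, 0.10 and 0.09 with SEs of 0.04, 0.05 and 0.05, which did not pass the test. The 2 precursors outside the tested set, Mirlet7b and Mirlet7c-2, had differences of 0.11 (SE 0.04) and 0.11 (SE 0.04) in a fit of all 1255 transcripts, where their adjusted p was 0.725.

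The family sum also differed between the library sets. In the first set it was 68111 to 74839 CPM in 6 Q80 libraries and 60536 to 69523 in 11 controls, so that 1 Q80 library, M1, lay within the control range. In the second set it was 74662 and 78259 CPM in the 2 Q80 libraries and 66878 to 77358 in the 5 controls. With the library set as a covariate the difference of Mirlet7i was 0.15 with an adjusted p of 0.0744 by edgeR, and with the lane 0.15 with an adjusted p of 0.0743. The epithelial and sensory level moved with the groups as given above. With its log2 sum added as a covariate, which was decided once the data had been seen, the difference of Mirlet7i was 0.16 (SE 0.04, edgeR adjusted p = 0.193), that of Mirlet7a-1 0.12, of Mirlet7c-1 0.19 and of Mir98 0.12.

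**Figure D3:**
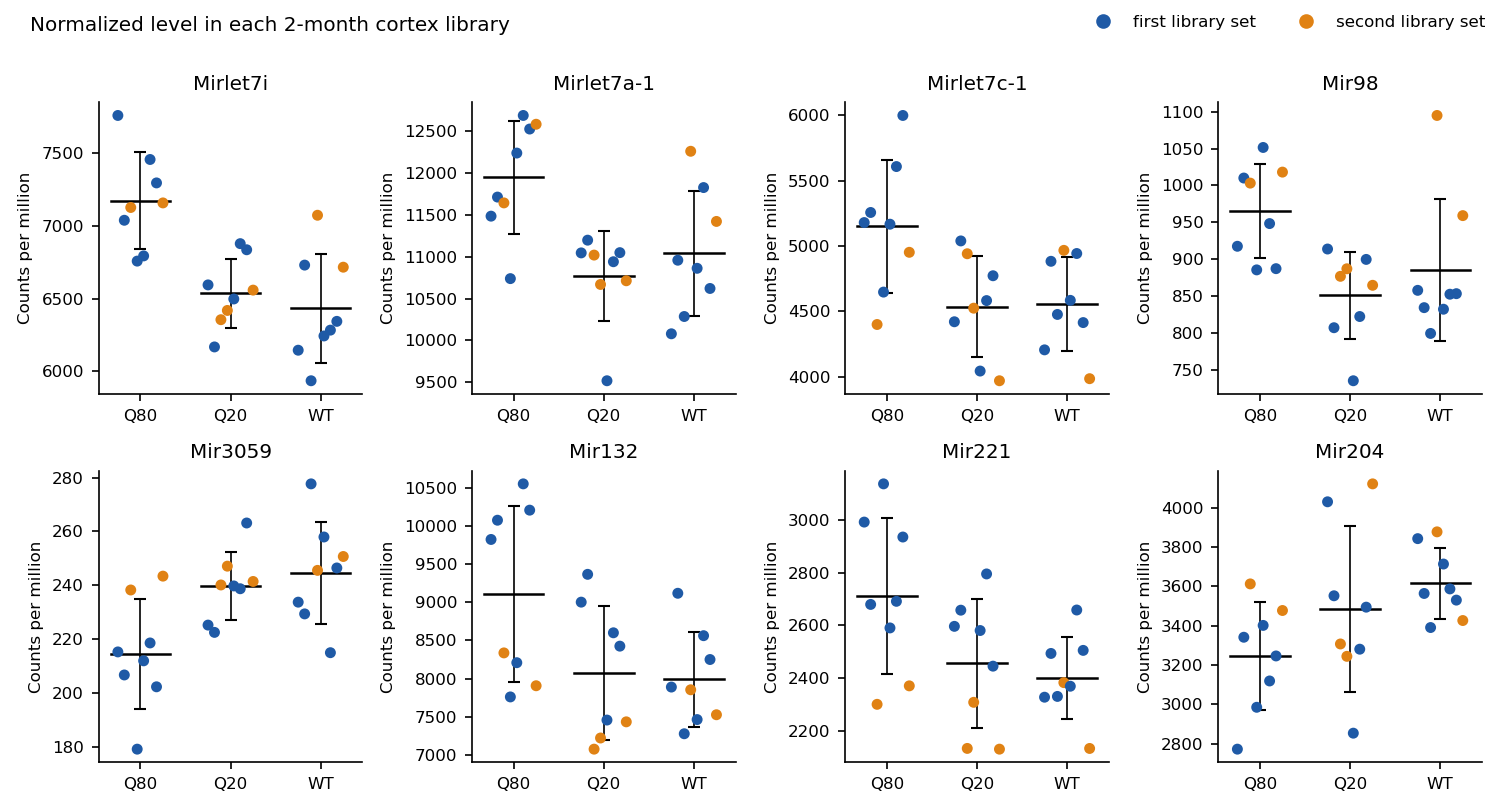
Normalized level in CPM of 8 microRNAs in each 2-month cortex library of Q80, Q20 and WT mice, with points coloured by library set, a line at the mean of each group of 8 and bars of 1 SD. The axes do not start at 0. For Mirlet7i all Q80 points lie above the control median of 6458 CPM, and for Mir3059 the 2 Q80 libraries of the second set, at 238 and 243 CPM, lie among the controls.

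Mir3059, which lies in an intron of Mgat4c, a gene for a glycosyltransferase, on chromosome 10 (chr10:101772692-101772772, plus strand, GRCm38), was the microRNA with the smallest p among those lower in Q80. Its level was 215.3, 206.8, 238.3, 179.3, 212.02, 218.6, 202.4 and 243.4 CPM in Q80 F1, F2, F3, M1, M2, M3, M4 and M5. In the controls it ranged from 215 to 278 CPM with a median of 241. The 4 lowest libraries were Q80, while Q80 M5 lay above the control median, so the groups overlapped. The log2 difference was -0.18 (SE 0.05, 95% interval -0.28 to -0.07), with an adjusted p of 0.217 by edgeR and 0.0369 by DESeq2. The exact permutation test gave p = 0.000795, or 0.13 adjusted over the 327 tests.

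The library sets gave different values for Mir3059. In the first set its mean was 205.7 ± 14.2 CPM (SD, n = 6) in Q80 and 240.9 ± 18.99 (n = 11) in controls. In the second set it was 241 ± 3.6 CPM (n = 2) in Q80 and 245 ± 4.3 (n = 5) in controls, a difference smaller than the spread between libraries. With the first set alone the log2 difference was -0.23 (edgeR adjusted p = 0.108), and with the set as a covariate -0.17 (adjusted p = 0.125). Q80 females and males had like values, 209.9 ± 24.4 and 219.1 ± 17.5 CPM (n = 4 each), beside 240 ± 17.6 and 244 ± 14.7 in controls (n = 8 each).

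Of the activity-regulated microRNAs, Mir132, Mir212 and Mir134, all 3 had a positive fitted difference and 1 of 3 had an unadjusted p under 0.05, beside 163 of 327 positive and 8.26% under 0.05 over all microRNAs tested. Mir132, in an intron of 1700016P03Rik on chromosome 11 and a regulator of dendrite growth, was measured at 9824, 10076, 8337, 7760, 8209, 10553, 10208 and 7907 CPM in Q80 F1, F2, F3, M1, M2, M3, M4 and M5. Controls ran from 7076 to 9367 CPM with a median of 7872. The Q80 libraries split into 4 above every control and 4 within the control range. The difference was 0.18 (SE 0.06, edgeR adjusted p = 0.326), and it was 0.17 with the library set as a covariate, where the adjusted p was 0.192. Mir212, from the same transcript and with the same seed, differed by 0.05 (SE 0.04, 95% interval -0.04 to 0.14, unadjusted p = 0.237). Mir134 differed by 0.03 (SE 0.07, unadjusted p = 0.614), a value whose sign was negative in some alternative fits.

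The X-linked pair Mir221 and Mir222, which target cell cycle inhibitors, had positive differences. Mir221 had a Q80 median of 2686 CPM (2300 to 3138) and a control median of 2414 (2130 to 2796), with 3 Q80 libraries above every control, for a difference of 0.16 (SE 0.06, edgeR adjusted p = 0.326). The 2 lowest Q80 values, 2300 and 2370 CPM, were those of the second library set, in which the controls also ran lower, from 2130 to 2383 CPM. Mir222 differed by 0.06 (SE 0.05, unadjusted p = 0.187).

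The neuron-enriched list had 14 tested members, of which 12 had a positive and 2 a negative fitted difference, with a median of 0.07. The list holds paralogs that can share reads, such as Mir9-2 and Mir9-3 with the same mature RNA. These are therefore not 14 separate observations. By unadjusted p under 0.05, 1 of the 14 was higher and 0 were lower, near the 4.89% and 3.36% over all 327. That one was Mir9-2, a regulator of neural progenitors carried by the lincRNA C130071C03Rik, at 37601 to 43610 CPM in Q80 (median 41630) and 33029 to 42882 CPM in controls (median 37777). The ranges overlapped over most of the Q80 values, and the difference was 0.11 (SE 0.04, edgeR adjusted p = 0.326). Mir128-1 and Mir128-2 differed by 0.00 (SE 0.11) and -0.05 (SE 0.05), and their sign changed in some alternative fits. The 5 most abundant microRNAs of the controls included Mir181a-2, at a mean of 97748 CPM, and Mir26a-2, at 84785, with differences of 0.04 (SE 0.05) and -0.04 (SE 0.03). Mir30a, also among the 5, differed by 0.02 (SE 0.04).

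Among other microRNAs with positive differences, Mir193b on chromosome 16 was at 99.2 CPM or more in every Q80 library (median 119) and 86.4 to 127 CPM in controls (median 103). Its difference was 0.18 (SE 0.06, edgeR adjusted p = 0.326). Mir320, a hairpin made without Drosha, differed by 0.12 (SE 0.05, adjusted p = 0.326) and was the 1 of 4 Drosha-independent microRNAs with an unadjusted p under 0.05, beside 8.26% over all 327. Mir484 and Mir877 of the same list differed by 0.00 (SE 0.08) and -0.04 (SE 0.07). In the imprinted Dlk1-Dio3 cluster on chromosome 12, 24 of 37 tested members had a positive and 13 a negative difference (median 0.02), and 3 were higher and 2 lower by unadjusted p under 0.05, beside 4.89% and 3.36% over all 327. Mir154 of this cluster differed by 0.13 (SE 0.05) and Mir758 by -0.16 (SE 0.07), with adjusted p-values of 0.326 and 0.473 by edgeR.

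On the lower side, Mir758 was at 131.8 to 164 CPM in Q80 (median 146.2) and 122.8 to 194 in controls (median 167), with 0 of 8 Q80 libraries above the control median. Mir298, an imprinted microRNA, was at 362 to 500 CPM in Q80 (median 460) and 361 to 767 in controls (median 514.3), and also had 0 of 8 Q80 libraries above the control median. Its difference was -0.23 (SE 0.10, edgeR adjusted p = 0.473). Mir3547 was at 21.3 to 40.5 CPM in Q80 (median 28.9) and 22.6 to 56.8 in controls (median 40.7), for a difference of -0.41 (SE 0.15, adjusted p = 0.326). For these 3 microRNAs the Q80 values lay in the lower part of the control range, and 1 Q80 library, for Mir3547, lay below every control.

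Markers of other cells were read as lists, since a bulk sample cannot tell fewer cells of a type from less RNA per cell. Of the 10 tested microRNAs of choroid plexus and ciliated cells, 9 had a negative and 1 a positive difference (median -0.10), and 2 were lower by unadjusted p under 0.05, beside 164 of 327 negative and 3.36% lower over all microRNAs tested. The summed level of the list was 3778 to 4630 CPM in Q80 and 3846 to 5271 in controls. Mir204, which lies in an intron of Trpm3 and is expressed in choroid plexus, was at 2772 to 3612 CPM in Q80 (median 3293) and 2854 to 4120 in controls (median 3541), a difference of -0.13 (SE 0.06, edgeR adjusted p = 0.473). Mir1264, of the Htr2c gene, differed by -0.19 (SE 0.09, adjusted p = 0.548).

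All 8 epithelial and sensory members had negative fitted differences, from -1.88 to -1.65, but with SEs of 0.83 to 1.24. By unadjusted p under 0.05, 1 was lower and 0 were higher, beside 3.36% and 4.89% over all 327, and 0 passed FDR 0.05. Mir200b was at 27.1 to 956 CPM in Q80 (median 36.1) and 30.8 to 1276 in controls (median 504), with a difference of -1.75 (SE 0.83, edgeR adjusted p = 0.548). Only Q80 M5 lay above the control median, at 956 CPM, and without it the difference of Mir200b was -2.94 (SE 0.89, adjusted p = 0.190). Mir182, the most abundant member, was at 164 to 22197 CPM in Q80 and 150 to 24008 in controls. A low median sum was shared with Q92, Q111 and Q175 mice at 2 months, as given above. The part of these 8 microRNAs in the other differences was not tested beyond the covariate fit given above.

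The other marker lists moved less than the epithelial and sensory list, whose median was -1.81. The muscle and liver list had a median of -0.19 over 6 tested members, 2 of them with a mean of at least 10 counts. The Hox cluster list had -0.11 over 3 tested members, and in both lists 0 had an unadjusted p under 0.05. Mir375, a microRNA of neuroendocrine cells, was at 55.0 to 95.7 CPM in Q80 and 75.8 to 741 in controls, where Q20 F3 (741 CPM) and WT M1 (337.7 CPM) stood far above the other 14. Its fitted difference of -0.96 (SE 0.42, edgeR adjusted p = 0.473) was set by means that include those 2 libraries, since the medians were 78.0 and 90.3 CPM. The 4 vessel and blood members had differences from -0.21 to -0.01 and the 4 microglia and inflammation members from -0.06 to 0.01, with 0 of 8 at an unadjusted p under 0.05. The summed microglia and inflammation list ran from 2356 to 5183 CPM in Q80 and from 2338 to 5629 in controls. The 2 tested oligodendrocyte microRNAs, of the Mir219 family, differed by 0.07 (Mir219a-2, SE 0.05) and 0.10. Mir338, the most abundant member of the oligodendrocyte list and outside the tested set, differed by -0.07 (SE 0.05) in the fit of all 1255 transcripts. The sum of the 3 was 3523 ± 351 CPM in Q80 (SD, n = 8) and 3595 ± 254 in controls (n = 16), a difference smaller than the spread between libraries.

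**Figure D4:**
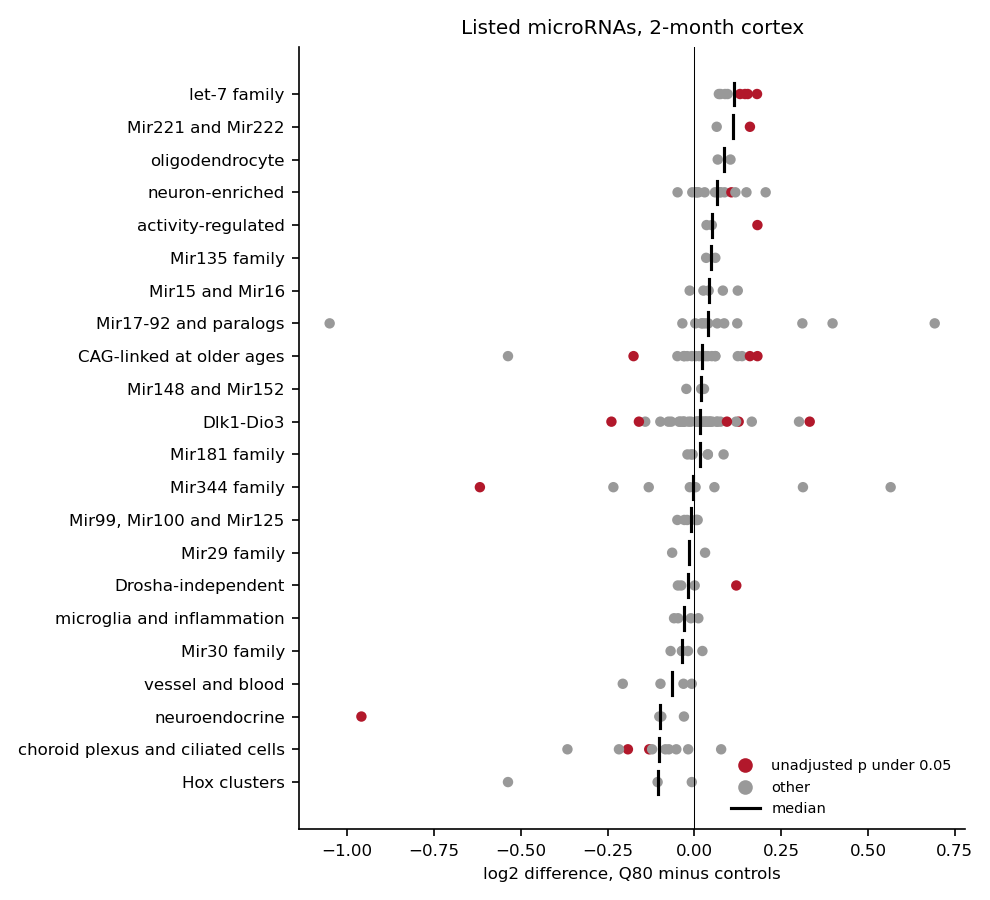
Fitted log2 difference of Q80 minus controls for the tested members of each list, 1 point per microRNA, red where the unadjusted edgeR p is under 0.05, with a bar at the list median. The let-7 family has its median at 0.11 and the choroid plexus and ciliated cell list at -0.10. The epithelial and sensory list, near -1.8, and the muscle and liver list are not drawn.

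Of 18 tested microRNAs that earlier results of this series tie to CAG length or to Q175 at older ages, 11 had a positive and 7 a negative difference in Q80 at 2 months, with a median of 0.02. By unadjusted p under 0.05, 2 were higher (Mir132 and Mir221) and 1 was lower (Mir3059), beside 4.89% and 3.36% over all 327, and 0 passed FDR 0.05. The list was chosen from these same mice lines at other ages, so its members are not independent evidence of a direction. Mir135b, of this list, was at 58.8 to 81.1 CPM in Q80 (median 73.8) and 62.3 to 76.3 in controls (median 68.2), a difference of 0.06 (SE 0.06). The members with the next largest positive values were Mir210 (0.14, SE 0.10), a microRNA induced by low oxygen, and Mir195a (0.12, SE 0.07).

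The other members of that list did not pass the test, and all named here but Mir615 lay within 0.1 of 0. Mir708 differed by 0.06 (SE 0.05), Mir181a-1 by 0.04 (SE 0.04), Mir20a by 0.03 (SE 0.07) and Mir186 by 0.01 (SE 0.03). Mir125b-1 and Mir125b-2 differed by 0.00 (SE 0.05) and -0.03 (SE 0.06), Mir99a by -0.02 (SE 0.04) and Mir674 by -0.01 (SE 0.04). Mir330 differed by -0.05 (SE 0.04) and Mir667 by -0.03 (SE 0.07). Mir615, of a Hox cluster, had a difference of -0.54 (SE 0.41) at a mean of 2.9 counts per library, where the depth could not show a change.

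The 2 control genotypes were compared with each other, 8 libraries against 8, as a background of such small differences. Both are of the Q20 line while Q80 is another line, so the spread between lines is not part of this background. Nor is the spread between cages, since Q20 and WT mice of the same sex shared a cage by their labels. Q20 against WT passed FDR 0.05 for 0 of 326 microRNAs (0.0%) with edgeR and 0 with DESeq2, and 14 of 326 (4.29%) had an unadjusted p under 0.05. There the let-7 members had 4 positive and 4 negative differences, from -0.08 to 0.05. Mirlet7i differed by 0.03 (SE 0.04) and Mir3059 by -0.02 (SE 0.05) between Q20 and WT. Against Q20 alone, Q80 differed by 0.13 in Mirlet7i and -0.16 in Mir3059, and against WT alone by 0.16 and -0.19. With 8 controls, none of these passed FDR 0.05 (adjusted p between 0.263 and 0.471).

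Whether the sexes differed in the Q80 difference was tested as an interaction, which passed FDR 0.05 for 0 of 327 microRNAs (0.0%) with edgeR and 0 with DESeq2. At an unadjusted p under 0.05 there were 33 of 327 (10.1%). The smallest p was that of Mir16-2, whose Q80 difference was lower in males by 0.74 on the log2 scale (SE 0.20, adjusted p = 0.301). Of the 8 let-7 members, 7 had a larger difference in males. Library Q80 M1, whose title says male, counts among the 4 Q80 females here. It had the lowest summed let-7 level in Q80 (68111 CPM), and the interaction was not fitted with the sex of the title. Mirlet7c-1 was at 4870 ± 415 CPM in Q80 females and 4681.5 ± 311 in control females, and at 5431 ± 467 in Q80 males and 4411 ± 375.3 in control males (SD, n = 4 and 8), an interaction of 0.24 (SE 0.10, edgeR adjusted p = 0.394).

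The differences of Q80 at 2 months were set beside those of Q80 mice at 6 and 10 months, which are other animals with controls of their own age. Q80 passed FDR 0.05 for 0 of 324 microRNAs (0.0%) against Q20 at 6 months and for 0 of 326 (0.0%) against Q20 and WT at 10 months with edgeR. At an unadjusted p under 0.05 there were 21 (6.48%) and 4 (1.23%), and DESeq2 called 0 at both ages. All 8 let-7 members had negative differences at 6 months (-0.18 to -0.06) and at 10 months (-0.08 to -0.01), opposite in sign to 2 months. Mirlet7i differed by 0.15 at 2 months, -0.07 (SE 0.04) at 6 months and -0.01 (SE 0.04) at 10 months. Mir98 differed by 0.15, -0.11 (SE 0.04) and -0.08 (SE 0.05). At 6 months no Q80 library shares a lane number with a Q20 library, so lane and genotype cannot be told apart at that age. Some Q80 libraries of that age have a library code that no Q20 library has. The code was a covariate, so the 6-month difference rests on the other Q80 libraries.

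Age and genotype were fitted together at 2 and 10 months to test whether the Q80 difference changed, and 0 of 328 microRNAs (0.0%) passed FDR 0.05 with edgeR and with DESeq2, while 20 (6.1%) had an unadjusted p under 0.05. The smallest p was that of Mirlet7a-1, whose difference was lower at 10 months by an interaction of -0.16 (SE 0.05, adjusted p = 0.504). All 8 let-7 members had a negative interaction, between -0.21 and -0.06, and 4 of them had an unadjusted p under 0.05. Mir3059 had an interaction of 0.25 (SE 0.08, adjusted p = 0.504), with a difference of 0.05 (SE 0.06) at 10 months. None of these changes with age passed the threshold.

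**Figure D5:**
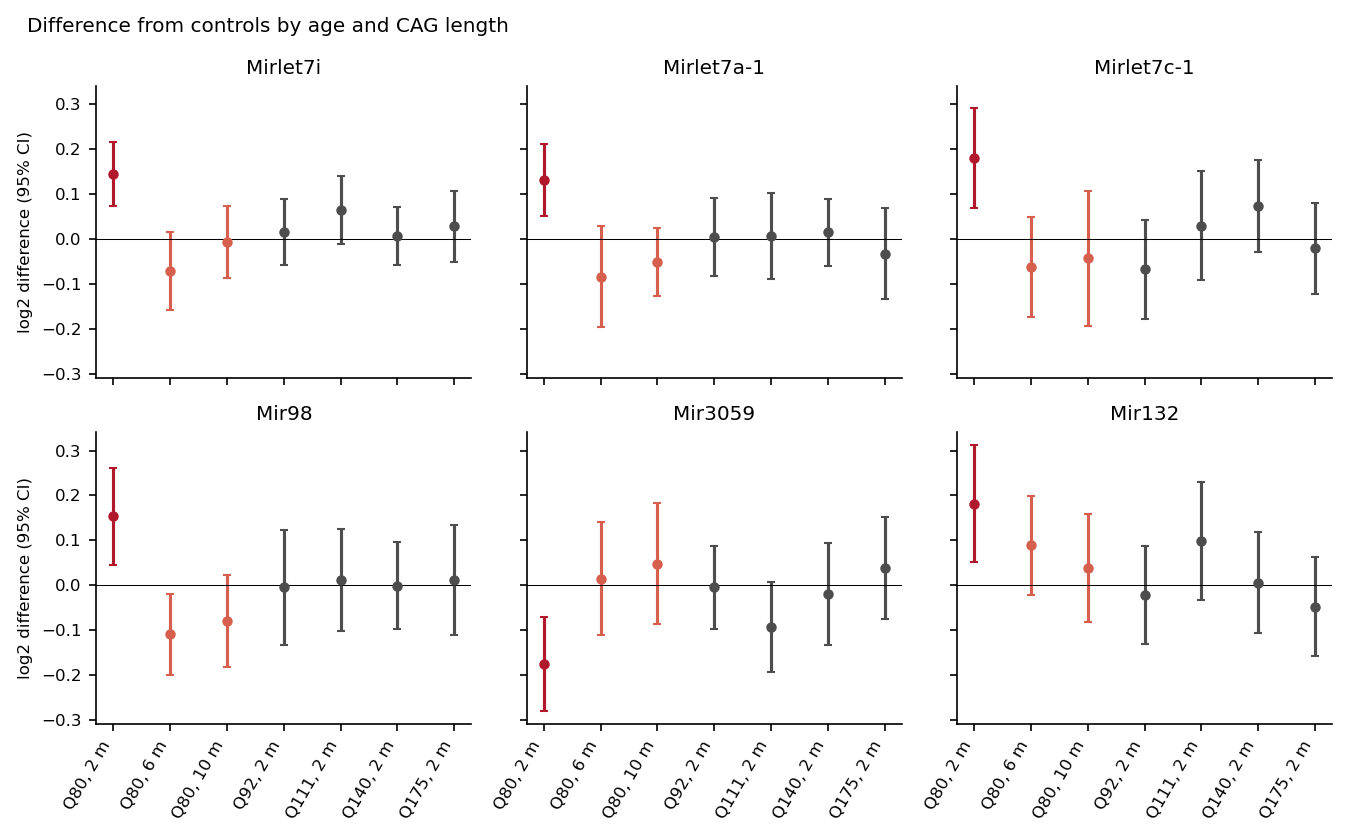
Fitted log2 difference from controls with its 95% confidence interval for 6 microRNAs, in Q80 mice at 2, 6 and 10 months (red and light red) and in Q92, Q111, Q140 and Q175 mice at 2 months (grey). The 2-month Q80 intervals exclude 0 in all 6 panels before adjustment, and the 4 let-7 members lie at or below 0 in Q80 mice at 6 and 10 months.

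At 2 months the other CAG lengths were compared with the same 16 controls, so their differences share those libraries with Q80. With edgeR, 0 microRNAs passed FDR 0.05 in Q92, Q111, Q140 or Q175, with 48 of 327 (14.7%), 16 of 326 (4.91%), 8 of 326 (2.45%) and 19 of 327 (5.81%) at an unadjusted p under 0.05. Mirlet7i differed by 0.15 in Q80 and by 0.02, 0.06, 0.01 and 0.03 in Q92, Q111, Q140 and Q175. The median over the 8 let-7 members was 0.11 in Q80 and 0.01, -0.01, -0.0020 and -0.03 in the same order. Mir3059 differed by -0.18 in Q80 and by -0.0048, -0.09, -0.02 and 0.04 in those 4 genotypes. Mir132 differed by 0.18 in Q80 and by -0.02, 0.10, 0.01 and -0.05. These microRNAs were chosen for their difference in Q80, so the order of the genotypes follows in part from that choice and is given as a description.

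Q80 was tested directly against Q92, the next CAG length, without the controls. With edgeR 0 of 324 microRNAs (0.0%) passed FDR 0.05 and 45 (13.9%) had an unadjusted p under 0.05, while DESeq2 called 10. Mir320 and Mir30c-2, the 2 with an adjusted p of 0.0571, differed by 0.21 (SE 0.05) and -0.28 (SE 0.06), Q80 minus Q92. All 8 let-7 members were higher in Q80 in this test, by 0.02 to 0.23, and Mirlet7i by 0.11 (SE 0.04, edgeR adjusted p = 0.184). The Q80 libraries are the same as in the comparison with controls, so the shared sign is not separate evidence. Mir10b, a Hox cluster microRNA, differed by -0.42 (SE 0.10, adjusted p = 0.0671) from Q92 and by -0.01 (SE 0.09) from the controls. Mir148b differed by 0.02 (SE 0.05) from the controls.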

How the data were processed

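Small RNA from 24 cortex libraries was analysed. The authors clipped single-end reads, aligned them to mm10 with STAR and deposited estimated counts per Ensembl transcript without normalization, and their processing notes name CASAVA 1.8.2. The methods name HTSeq, but 48.1% of positive deposited values are not whole, so estimated counts were rounded. Transcripts were named with GENCODE for GRCm38. Of 480 study microRNAs, 329 had a transcript, and the other 151 were not analysed here. Groups, cages and library sets came from the labels.

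Differences were fitted with edgeR 4.0.16 in R 4.3.3 (TMM, robust quasi-likelihood F test, two-sided, sex as covariate), with Benjamini-Hochberg adjustment at FDR 0.05. At 6 months the library code was a further covariate. Library size was the total over all transcripts. DESeq2 1.42.0, other normalizations, filters, controls and covariates were alternatives, and the code was tested on simulated data. Levels are TMM-normalized CPM. The authors' FPKM table was not used. Libraries of 1 group differed by more than sampling noise in each of 84 pairs. P-values weigh a difference against the spread between mice within a group. They do not cover the spread between lines, since each genotype is 1 line.

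MicroRNAs were named by a rule: the 6 higher and 6 lower with the smallest p and a mean of at least 10 counts, the 5 most abundant, the calls of any comparison or alternative that made up to 5, up to 3 of each list, the list tied to CAG length, Mir10b and Mir148b. The rule gave 84 microRNAs, not all of which are described here. Other names (Mirlet7d, Mirlet7g, Mirlet7a-2, Mirlet7b, Mirlet7c-2, Mir1264, Mir338 and Mir19b-1) were added on seeing their values. The microRNA lists and the comparison were chosen with earlier results of these data known.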

Additional observations from a re-analysis of the deposited data

Results flagged for a closer look

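In 12 of the 162 groups of 8 libraries examined (54 measures in Q80, Q20 and WT), 1 library lay so far from the other 7 that its gap to the nearest was above Dixon's limit for 8 values, which chance passes in about 1 group of 20. In Q80 all such values belonged to library M5 and to 1 list: Mir200b at 956 CPM (others 27.1 to 219.02), Mir182 at 22197 CPM (others 164 to 4109), Mir183 at 2512 CPM (others 17.2 to 617), and the summed epithelial and sensory list at 30463 CPM (others 274 to 5889). Mir375 stood apart in Q20 F3 at 741 CPM (others 81.9 to 112) and in WT M1 at 337.7 CPM (others 75.8 to 114). Library Q20 M1 was low for Mirlet7a-1 at 9518 CPM (others 10669 to 11198) and for the summed let-7 family at 60536 CPM (others 66289 to 69523). Library WT F3 was high for Mir298 at 767 CPM (others 361 to 543) and for Mir330 at 1678 CPM (others 1421 to 1532). Mir128-1 in Q20 M4 was at 41930 CPM (others 26445 to 31776) and Mir667 in Q20 F2 at 576 CPM (others 356 to 442).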

How the results depend on the processing

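The count of 0 calls in Q80 at 2 months became 1 with the library total alone or without the robust option. That call was Mirlet7i, with edgeR adjusted p-values of 0.0495 and 0.0409. The count became 2 with DESeq2, alone or after the outlier steps of the methods (Mirlet7i and Mir3059). Replacing outlier counts within edgeR left it at 0 (Mirlet7i, adjusted p = 0.0886). The exact permutation test passed 1 (Mirlet7i). It was 0 under the other alternative fits run, leave-one-out fits included. The count at an unadjusted p under 0.05, 27, became 79 over all 1255 transcripts, 50 in the first library set, 49 there with lane as covariate, a setting chosen after seeing the data, and ran from 24 to 41 when 1 Q80 library was left out, the 41 without M5. With the replicate numbers of the titles as a replicate block it was 45, with 0 calls in that fit and in the same fit of Q20 against WT. Deviations of same-numbered libraries had correlations from -0.827 to 0.876 over 22 pairs (median 0.017). Pairs of other numbers had -0.914 to 0.935 over 170 pairs (median -0.012). No pairing by number was seen, though so wide a spread cannot exclude a pairing. Without Q80 M1, whose title and cage disagree, Mirlet7i differed by 0.16 (adjusted p = 0.0754), and over all 29 alternatives by 0.13 to 0.17. The count for Q80 against Q92 moved from 0 to 10 with DESeq2 and to 2 with filterByExpr (Mir320 and Mir30c-2), and the unadjusted count at 10 months from 4 to 2 with filterByExpr. For 53 of the microRNAs described, 1530 of 1536 values stayed on their side of the threshold, and 88 values of 17 microRNAs, none called, changed sign. Most had a difference near 0, while Mir615 (-0.54) was at 0.03 against Q20 alone, and Mir182 (-1.80) and Mir183 (-1.83) were at 0.05 and 0.07 with the epithelial and sensory sum, of which they are members, as covariate. The cause of these moves was not tested. Counting error limits microRNAs with under 10 counts per library.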
